A study of Arabidopsis thaliana with 4 samples.

Results

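Ribosomal proteins of the cytosol are encoded in Arabidopsis thaliana by families of related nuclear genes. The set described here holds 54 such genes of the 27880 rows in each count table. Its members were picked by their gene identifiers, with earlier results of these data known. The set has 29 genes for 16 proteins of the large subunit and 25 genes for 11 proteins of the small subunit. Of the 27 proteins, 20 had several genes in the set and 7 had 1. RNA-seq counts came from whole embryos in the Col background at the 32 to 64 cell stage (early to mid-globular), in 2 libraries of the serrate-1 mutant (se-1) and 2 libraries of wild type, which the series calls biological replicates. SERRATE is a zinc-finger protein that acts in microRNA processing and in splicing, and se-1 is a mutant allele of its gene. Plants of both genotypes were grown at 22 °C in 16 h light and 8 h dark. Embryo RNA was amplified from its poly(A) tail before library construction.

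A ribosome joins a small subunit, which reads the mRNA, to a large subunit, which forms the peptide bond. Each carries ribosomal RNA and many proteins, most of them in a single copy, and plants express several paralogous genes for each. Loss of single ribosomal protein genes is known in Arabidopsis for pointed leaves, altered leaf polarity and embryo arrest. Promoters of these genes are known for the site II element, which TCP transcription factors bind, and for the telo-box, a short sequence that resembles the telomere repeat.

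Libraries held 18580516 and 20882004 counts in se-1 and 18894161 and 19362653 counts in wild type. The SERRATE gene itself (AT2G27100) had 1297 and 1483 counts in se-1, against 1836 and 1886 counts in wild type, and was 1.39-fold lower in se-1 (adjusted p = 2.92e-05). The difference between the genotypes was wide, with 13523 of 18714 tested genes called in edgeR's quasi-likelihood test (adjusted p under 0.05, Benjamini-Hochberg over all tested genes). Marker genes of neighbouring tissues also differed: the summed level of 6 endosperm markers was 122 to 124 CPM (counts scaled to a common library size by TMM) in se-1 and 312 to 331 CPM in wild type, that of 7 seed coat markers was 190 to 192 CPM in se-1 and 110.0 to 119.5 CPM in wild type, and that of 5 embryo markers was 836 to 891 CPM in se-1 and 1044 to 1120 CPM in wild type. Of these lists, 4 of 6 endosperm markers fell and 2 rose, 5 of 7 seed coat markers rose and 1 fell, 2 of 5 embryo markers rose and 2 fell, and no marker was at 0 in all libraries. Most of the endosperm sum in wild type was 1 gene, MYB118, with 43.7 and 43.4 CPM in se-1 and 228 and 216 CPM in wild type. PHE1 went the other way, with 26.3 and 28.1 CPM in se-1 and 3.27 and 4.03 CPM in wild type. The part of other tissues in the results that follow was not tested, and in whole-embryo RNA fewer cells of a type and less RNA per cell cannot be told apart.

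Transcript length ran along with the difference between the genotypes over the whole table. Across 18495 tested protein-coding genes, which are not independent replicates, the log2 fold change of se-1 over wild type had a Spearman rho of -0.44 with annotated transcript length. The ribosomal protein transcripts are short, 550 to 1598 nt with a median of 982.5 nt, against a median of 1635 nt over the tested protein-coding genes. Fold changes are therefore given as counted and, beside them, after a length correction in which the trend of each library with transcript length, fitted over protein-coding genes, was taken out. Genotype and length trend cannot be told apart with these libraries, so neither scale is given as the true one.

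Of the 54 genes, 53 passed the filter on low counts. As counted, 38 of them were called, where 72.3% of all tested genes were: 26 rose in se-1, where 36.2% of all tested genes did, 12 fell, where 36.0% did, and 15 were not called. Among the 8482 tested protein-coding genes within the members' range of transcript lengths, 4244 rose and 1884 fell, shares close to those of the set. The median log2 fold change of the set was 0.17, beside 0.00 over all tested genes and 0.32 over the genes of that length range. After the length correction 41 were called (66.8% of all genes tested): 12 rose (32.3% of all tested genes), 29 fell (34.4%) and 12 were not called, with a median of -0.26 beside -0.02 over all genes tested, and in the same length range 2847 of the 8482 genes rose and 2978 fell. The direction of the set as a whole thus turned with this one step. Calls in the same direction on both scales were made for 12 genes that rose and 12 that fell, 4 went from higher to lower, 10 lost a call of higher, and 13 that were not called as counted were called lower after the correction. Levels of the genotypes did not overlap for 47 of the 53 genes, where 85.5% of all tested genes showed the same.

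**Figure D1:**
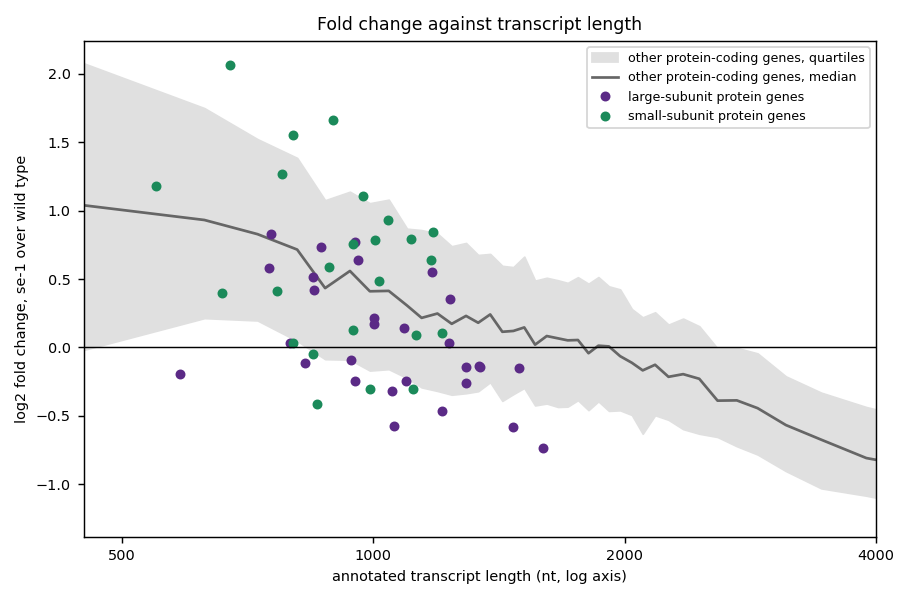
Log2 fold change (se-1 over wild type, as counted) of the 53 tested ribosomal protein genes against annotated transcript length in nt on a log axis, with the median and quartiles of the other tested protein-coding genes. Fold changes of both the set and the other genes decline with length, and most of the genes furthest above the line belong to the small subunit.

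Set against other protein-coding genes of like length, the ribosomal protein genes were not uniformly high. Among transcripts of 750 to 1000 nt, the 23 members had a median log2 fold change of 0.52, beside 0.55 for 1801 other genes. Among those of 1000 to 1250 nt, the 19 members had 0.17 and 2310 other genes had 0.28. All 6 members of 1250 to 1500 nt lay below the median of 0.19 of the 2514 other genes in that range.

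The subunits differed in their counts. Over all tested genes, 36.2% rose and 36.0% fell as counted, and 32.3% and 34.4% after the length correction. These shares also stand beside the counts of each group of genes below. Of 24 tested small-subunit genes 16 rose and 3 fell, with a median log2 fold change of 0.61, and after the length correction 11 rose and 9 fell, with a median of 0.09. Of 29 large-subunit genes 10 rose and 9 fell, with a median of -0.09, and after the length correction 1 rose and 20 fell, with a median of -0.29. No test of the difference between the subunits was made.

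Together the 54 genes took 4.19% and 4.29% of all counts in se-1 and 3.86% and 3.82% in wild type. In se-1 their summed level came to 42293 ± 934 CPM, against 38546 ± 204 CPM for wild type (SD, n = 2 each), a ratio of 1.10. Both se-1 libraries lay above both wild-type libraries, and the exact two-sided permutation p of 0.33 is the smallest that 2 against 2 libraries can give. After the length correction the log2 ratio of the summed level was -0.29, against 0.13 as counted.

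Promoter sequences of 5 members are shown because these genes carry the extremes of the set: the largest rise (AT5G27700, protein S21), the largest fall (AT3G09630, protein L4), the highest level per kb in the mean of all 4 libraries (AT5G15200, protein S9) and the paralogues with the largest difference in fold change (AT5G59240 and AT5G20290, both protein S8). Each line gives the 250 bases before the annotated gene start, 5′ to 3′ on the gene's strand, from the RefSeq TAIR10.1 assembly. Capitals mark site II elements (TGGGCC or TGGGCT) and telo-boxes (AAACCCTA), on either strand.
AT5G27700 (chr5:9808514-9808763, minus strand): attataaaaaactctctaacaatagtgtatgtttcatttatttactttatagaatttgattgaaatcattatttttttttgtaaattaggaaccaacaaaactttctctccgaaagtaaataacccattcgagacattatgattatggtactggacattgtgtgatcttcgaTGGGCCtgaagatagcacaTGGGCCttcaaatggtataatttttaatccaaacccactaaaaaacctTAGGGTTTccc
AT3G09630 (chr3:2953443-2953692, plus strand): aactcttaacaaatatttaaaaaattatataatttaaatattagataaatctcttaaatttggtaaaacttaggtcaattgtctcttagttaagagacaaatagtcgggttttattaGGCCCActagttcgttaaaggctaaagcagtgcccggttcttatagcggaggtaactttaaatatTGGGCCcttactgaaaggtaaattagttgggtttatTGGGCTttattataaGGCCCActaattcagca
AT5G15200 (chr5:4936430-4936679, minus strand): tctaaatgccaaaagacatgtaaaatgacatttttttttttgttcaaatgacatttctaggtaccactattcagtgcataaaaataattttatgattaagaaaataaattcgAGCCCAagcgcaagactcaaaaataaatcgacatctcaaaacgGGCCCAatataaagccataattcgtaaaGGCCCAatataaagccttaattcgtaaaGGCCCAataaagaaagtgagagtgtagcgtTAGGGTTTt
AT5G59240 (chr5:23903768-23904017, minus strand): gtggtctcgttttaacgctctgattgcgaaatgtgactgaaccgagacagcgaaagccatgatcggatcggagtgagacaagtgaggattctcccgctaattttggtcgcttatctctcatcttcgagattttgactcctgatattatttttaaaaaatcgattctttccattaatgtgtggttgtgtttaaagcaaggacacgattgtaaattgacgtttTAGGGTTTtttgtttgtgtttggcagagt
AT5G20290 (chr5:6853107-6853356, minus strand): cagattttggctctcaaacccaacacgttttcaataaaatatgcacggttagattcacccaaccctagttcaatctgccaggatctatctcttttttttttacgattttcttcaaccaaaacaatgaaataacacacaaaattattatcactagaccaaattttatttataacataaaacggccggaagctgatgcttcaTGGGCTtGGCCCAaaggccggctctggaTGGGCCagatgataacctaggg

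In the window from 250 bases before to 50 bases after the start, site II elements were found in 44 of the 54 promoters (81.5%), beside 5961 of 27443 protein-coding genes (21.7%), and 35 of the 54 held several. Telo-boxes were found in 27 of the 54, beside 6.2% of protein-coding genes. Of the S8 paralogues shown, the promoter of AT5G59240 held 0 site II elements and that of AT5G20290 held 3.

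The 10 genes whose window held no site II element had a median log2 fold change of 0.94, and 8 of them rose and 1 fell. The 43 tested genes with at least 1 element had a median of 0.11, and 18 rose and 11 fell. After the length correction the medians were 0.28 without and -0.29 with the element, with 6 rising and 3 falling of the 10, and 6 rising and 26 falling of the 43. AT5G27700, with the largest rise of the set, held 2 elements and went against this order. Over all tested protein-coding genes the medians were 0.00 without and 0.00 with the element as counted. After the length correction they were -0.01 without and -0.05 with it. A gap as wide as that of the set was thus not seen in the table at large. Among 60 other cytosolic ribosomal protein genes, a list that is not complete, the medians were 1.04 without the element (14 genes) and 0.78 with it (46 genes). After the length correction these medians were 0.46 and 0.10. These are descriptions with no test, the subunits were not separated in them, and a match to the letters is not a binding site.

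**Figure D2:**
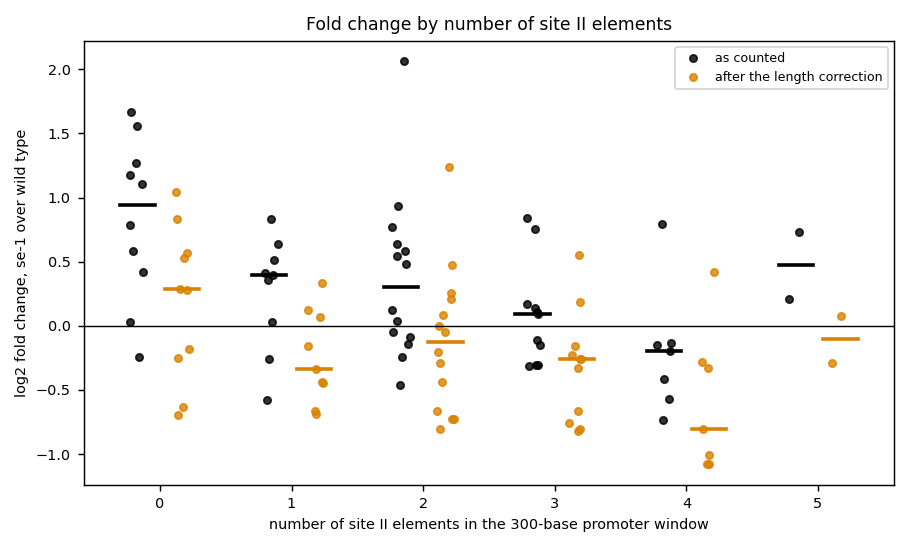
Log2 fold change (se-1 over wild type) of the 53 tested genes by the number of site II elements in the 300-base promoter window, as counted and after the length correction, with short lines for medians. The 10 genes with 0 elements have medians of 0.94 as counted and 0.28 after the correction.

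**Figure D3:**
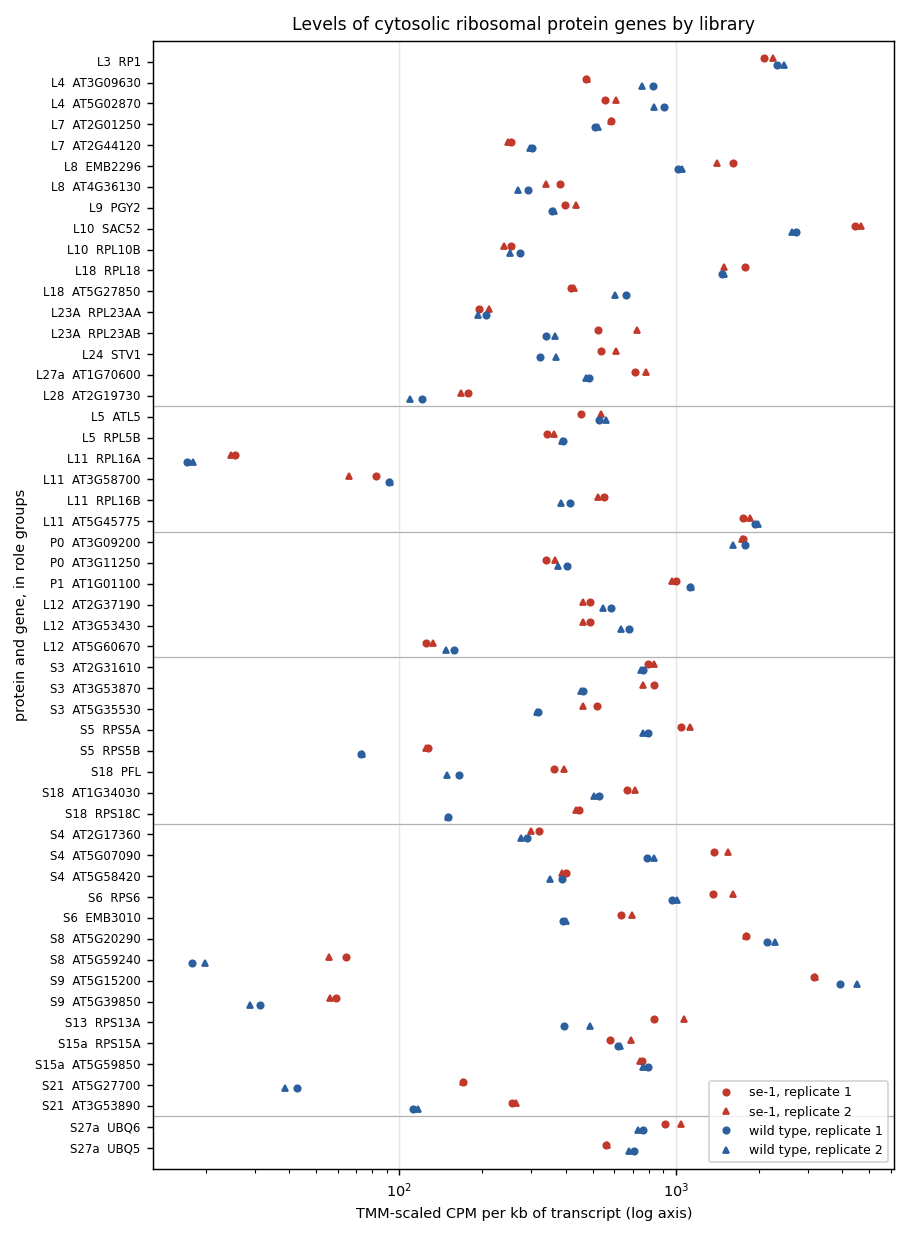
TMM-scaled CPM per kb of transcript (log axis) of the 53 tested genes in each of the 2 se-1 and 2 wild-type libraries, in the order of their roles. Replicates lie close together, and the level per kb within the set spans 25.1 to 4548 in se-1 and 17.6 to 4223 in wild type.

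In the body of the large subunit, 8 of 17 genes rose, 4 fell and 5 were not called, and after the length correction 1 rose and 10 fell. L4 lines the tunnel through which the new peptide leaves, and both of its genes fell on both scales. AT3G09630 had 756 and 761 CPM in se-1, against 1319.8 and 1205 CPM in wild type, a log2 fold change of -0.74 ± 0.09 (SE, adjusted p = 5.37e-07). AT5G02870 had 815 and 894 CPM in se-1, against 1331 and 1227 CPM in wild type, a log2 fold change of -0.58 (adjusted p = 1.32e-05). After the length correction they stood at -0.81 and -0.66.

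The genes of L10, which takes part in the joining of the subunits, did not move together. SAC52, the main L10 gene and in se-1 the gene with the highest level per kb of the whole set, had 4213 and 4437 CPM in se-1, against 2582 and 2495 CPM in wild type, and rose by a log2 fold change of 0.77 ± 0.10 (SE, adjusted p = 8.37e-07). Its rise was not called after the length correction (0.21, adjusted p = 0.0563). RPL10B had 239 and 224 CPM in se-1 and 257 and 237 CPM in wild type, with overlapping genotypes. It was not called as counted and was lower after the length correction (-0.66, adjusted p = 1.43e-06). A further L10 gene outside the set, SAG24, had 657 and 633 CPM in se-1 and 962 and 952 CPM in wild type, and fell on both scales.

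L3, at the peptidyl transferase centre, had in RP1 3109 and 3355 CPM in se-1, against 3479 and 3689 CPM in wild type, which was not called as counted (log2 fold change -0.15, adjusted p = 0.172) and was lower after the length correction (-0.23, adjusted p = 0.0398). RPL3B, a paralogue outside the set, had 169 and 151 CPM in se-1 and 76.5 and 78.7 CPM in wild type, and rose on both scales. The L23A proteins sit at the exit of the tunnel. RPL23AB had 396 and 549 CPM in se-1 and 256 and 276 CPM in wild type (0.83, adjusted p = 2.86e-06), its se-1 replicates lying far apart, whereas RPL23AA had 155 and 168 CPM in se-1 and 164 and 153 CPM in wild type (0.03, not called as counted). STV1, an L24 gene known for its part in re-initiation after upstream reading frames, had 466 and 528 CPM in se-1, against 279 and 319 CPM in wild type (0.73, adjusted p = 8.89e-07). RPL23AB (0.07) and STV1 (0.08) were not called after the length correction, and RPL23AA was lower (-0.70).

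Within the set, L8 was the one large-subunit protein with a gene that rose on both scales. EMB2296, known for embryo arrest on its loss, had 1893 and 1663 CPM in se-1, against 1195 and 1238 CPM in wild type, with log2 fold changes of 0.55 as counted (adjusted p = 3.75e-05) and 0.25 after the length correction (adjusted p = 0.0212). The call ended when GC content was corrected as well (0.05, adjusted p = 0.662). Its paralogue AT4G36130 had 471 and 419.6 CPM in se-1 and 362 and 333 CPM in wild type, and rose as counted (0.36) but not after the length correction (0.12). Only 78.6% of the 50-base windows of its transcript, and 2.0% of those in the last 300 nt, occur nowhere else in the genome or transcripts, so its level is uncertain.

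The L18 genes parted. RPL18 had 1934 and 1629.8 CPM in se-1 and 1599 and 1631 CPM in wild type, which overlap, and was lower after the length correction (-0.26), while AT5G27850 had 443 and 453 CPM in se-1, against 696 and 637 CPM in wild type, and fell on both scales (-0.57 and -1.01). AT5G27850 overlaps AT5G27860 on the opposite strand, which had 84.2 and 87.1 CPM in se-1 and 40.35 and 45.3 CPM in wild type. For L7, AT2G01250 had 582 and 587 CPM in se-1 and 513 and 524 CPM in wild type (not called as counted, -0.33 and lower after the length correction), and AT2G44120 had 327 and 320.2 CPM in se-1 and 391.6 and 383 CPM in wild type, a fall on both scales that was not called as counted without wild type replicate 1 (adjusted p = 0.055). Without se-1 replicate 2, RPL18 was called higher (0.26, adjusted p = 0.0262).

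The remaining body proteins had 1 gene each in the set. AT1G70600 (L27a) had 685 and 749 CPM in se-1 and 466 and 455 CPM in wild type, and AT2G19730 (L28) had 133 and 125 CPM in se-1 and 90.5 and 82.2 CPM in wild type. Both rose as counted, and neither was called after the length correction. PGY2, an L9 gene known from leaf polarity, had 397 and 436 CPM in se-1 and 357 and 362 CPM in wild type. Its call turned from higher to lower with the length correction. The call as counted was lost without se-1 replicate 2, wild type replicate 1 or wild type replicate 2 (log2 fold change 0.15 to 0.22). By the window count used for AT4G36130, 42.9% of its 50-base windows are unique. AT1G33120 is a near copy, and AT1G06647 overlaps PGY2 on the opposite strand. Outside the set, AT1G33120 rose as counted (0.34) and was not called after the length correction. AT4G10450 had 107 and 104 CPM in se-1, against 265 and 258 CPM in wild type, and fell on both scales (-1.31 and -1.85). Over these 3 L9 genes the ratio of the summed level per kb was 0.97, with overlapping genotypes.

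Among the proteins that bind 5S ribosomal RNA, 2 of 6 genes rose and 1 fell as counted, and after the length correction none rose and 5 fell. For L5, ATL5 had 610.0 and 719 CPM in se-1 and 709 and 753 CPM in wild type, and RPL5B had 441 and 467 CPM in se-1 and 503 and 502 CPM in wild type, neither of them called as counted and both lower after the length correction (-0.28 and -0.33). For L11, AT5G45775 carried most of the level, with 1455 and 1539 CPM in se-1 and 1602 and 1636 CPM in wild type. It was not called as counted (-0.11) and was lower after the length correction (-0.81, adjusted p = 1.95e-07). RPL16A, the lowest of the tested genes per kb, had 21.6 and 20.9 CPM in se-1, against 14.5 and 15.3 CPM in wild type, a log2 fold change of 0.52 (adjusted p = 0.000135). RPL16B rose (0.42) and AT3G58700 fell (-0.32) as counted, the fall being lost without se-1 replicate 2 (adjusted p = 0.124). Without that library ATL5 was called lower (-0.26, adjusted p = 0.0273). With the length correction RPL16A was not called (-0.16), and RPL16B (-0.25) and AT3G58700 (-0.76) were lower. The proteins of these L11 genes are 99.5% to 100% identical in pairs.

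In the stalk, which recruits translation factors, no gene of the set rose on either scale, while 4 of 6 fell as counted and 5 fell after the length correction. L12 joins the stalk base, and each of its 3 genes fell on both scales. AT3G53430 had 593 and 558 CPM in se-1, against 821 and 765 CPM in wild type, a log2 fold change of -0.46 ± 0.09 (SE, adjusted p = 9.29e-05), and the other two, AT2G37190 and AT5G60670, had -0.25 each. AT1G01100 (P1) had 587 and 569 CPM in se-1 and 662 and 665 CPM in wild type, a log2 fold change of -0.20 (adjusted p = 0.0384) that was -1.08 after the length correction. That call was lost as counted when any one of the 4 libraries was left out (adjusted p 0.0539 to 0.134), as were those of AT2G37190 without se-1 replicate 2 (0.0694) or wild type replicate 1 (0.126) and of AT5G60670 without se-1 replicate 1 (0.0735) or wild type replicate 1 (0.125). For P0, AT3G09200 had 2148 and 2132 CPM in se-1 and 2190.0 and 1989 CPM in wild type, and AT3G11250 had 454 and 489 CPM in se-1 and 540.0 and 503 CPM in wild type, neither called as counted. AT3G11250 was lower after the length correction (-0.29), and AT3G09200 was not called (-0.20) but was lower once GC content was corrected too (-0.34, adjusted p = 0.00286). Among P0 and P1 genes outside the set, the P0 gene AT2G40010 rose on both scales (1.56 and 1.48). The P1 genes AT4G00810 (0.39) and AT5G47700 (0.20) rose as counted and fell after the length correction (-0.42 and -0.66). This covers P0 and P1 alone, not other stalk genes outside the set. With these included, the log2 ratio of the summed P1 level per kb was 0.17 as counted, against -0.20 for AT1G01100 alone. In the head of the small subunit, 7 of 8 genes rose and none fell, and after the length correction 5 rose and 1 fell. The S18 genes code for identical proteins (100% in pairs). RPS18C had 359.5 and 349 CPM in se-1, against 121 and 120.4 CPM in wild type, a log2 fold change of 1.55 ± 0.08 (SE, adjusted p = 6.62e-12). PFL, known for pointed first leaves in its mutant, had 282 and 307 CPM in se-1, against 128 and 116 CPM in wild type (1.27, adjusted p = 2.29e-10). AT1G34030, the main S18 gene, had 510.2 and 547 CPM in se-1 and 406 and 389 CPM in wild type (0.41), and its call turned to lower after the length correction (-0.34), where RPS18C (0.84) and PFL (0.53) stayed higher. RPS18C overlaps AT4G09810 on the opposite strand, which had 7.23 and 6.996 CPM in se-1 and 3.74 and 3.77 CPM in wild type.

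S3 lies at the entry of the mRNA channel. AT3G53870 had 924 and 846 CPM in se-1, against 514 and 505 CPM in wild type, and rose on both scales (0.80 and 0.42), as did AT5G35530 (0.64 and 0.34). AT2G31610, the S3 gene with the highest level per kb in the mean of all libraries, had 958 and 1009 CPM in se-1 and 922 and 908 CPM in wild type and was called on neither. For S5, RPS5A, known for its strong expression in dividing cells and embryos, had 1064 and 1147 CPM in se-1, against 809 and 774 CPM in wild type (0.48, adjusted p = 6.96e-05; not called after the length correction), and RPS5B had 128 and 126 CPM in se-1 and 73.5 and 73.9 CPM in wild type and rose on both scales (0.78 and 0.29).

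In the body and platform of the small subunit, 8 of 14 genes rose and 2 fell, and after the length correction 6 rose and 6 fell. S21 held the largest rise of the set. AT5G27700 had 115 CPM in each se-1 library, against 28.7 and 26.1 CPM in wild type, 4.19-fold higher in se-1 (log2 fold change 2.07 ± 0.09 SE, adjusted p = 3.95e-13), and 2.35-fold higher after the length correction. AT3G53890, its paralogue, had 140.2 and 145 CPM in se-1 and 61.8 and 64.5 CPM in wild type (1.18, adjusted p = 2.99e-10), and 0.28 after the length correction (adjusted p = 0.00467). The level of S21 over both genes was 430.2 ± 6.6 CPM per kb in se-1 and 155.5 ± 0.7 CPM per kb in wild type (SD, n = 2 each).

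The S8 genes moved in opposite directions. AT5G59240, the minor gene, had 57.2 and 49.8 CPM in se-1, against 15.9 and 17.8 CPM in wild type (log2 fold change 1.67 ± 0.10 SE, adjusted p = 4.49e-11), while AT5G20290, with 96.5% and 97.0% of the level of S8 per kb in se-1 and 99.2% and 99.1% in wild type, had 1998 and 1999.8 CPM in se-1, against 2379 and 2556 CPM in wild type (-0.30, adjusted p = 0.00646). The genes of S9, another protein of this group, did the same: AT5G39850 had 61.3 and 58.6 CPM in se-1 and 32.6 and 30.1 CPM in wild type (0.93, adjusted p = 1.77e-08), and AT5G15200 had 2699 and 2732 CPM in se-1 and 3374 and 3864 CPM in wild type (-0.41, adjusted p = 0.00101). All 4 kept their direction and call after the length correction, and the fall of AT5G20290 as counted was not called without wild type replicate 2 (adjusted p = 0.0668). AT5G59240 overlaps AT5G59230 on the opposite strand, which had 3.91 and 3.26 CPM in se-1 and 1.16 and 0.575 CPM in wild type.

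RPS13A (S13) had 812 and 1040.3 CPM in se-1, against 384 and 476 CPM in wild type, and rose on both scales (1.11, adjusted p = 8.36e-08, and 0.57). It overlaps AT4G00090 on the same strand, which had 23.23 and 24.97 CPM in se-1 and 15.01 and 13.96 CPM in wild type. Its paralogue outside the set, AT3G60770, had 277 and 296 CPM in se-1 and 121 and 124 CPM in wild type and also rose on both. For S4, AT5G07090 had 1617 and 1816 CPM in se-1 and 926 and 988 CPM in wild type (0.84 and, after the length correction, 0.55), and AT2G17360 and AT5G58420 were not called as counted and were lower after the correction (-0.44 and -0.26). S6 is phosphorylated by S6 kinase under the TOR pathway: RPS6 had 1203 and 1422 CPM in se-1 and 857 and 892 CPM in wild type, and EMB3010 had 601 and 659 CPM in se-1 and 369 and 379 CPM in wild type. Both S6 genes rose as counted (0.59 and 0.75), and neither was called after the length correction. For S15a, RPS15A had 465 and 552 CPM in se-1 and 494 and 503 CPM in wild type, and AT5G59850 had 638 and 631 CPM in se-1 and 669.7 and 644 CPM in wild type, neither called as counted and both lower after the length correction (-0.69 and -0.72).

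S27a is made as a fusion with ubiquitin. UBQ6 had 602 and 689.5 CPM in se-1 and 502 and 479 CPM in wild type (0.40, adjusted p = 0.000568), and UBQ5 had 556 and 558 CPM in se-1 and 700.3 and 674 CPM in wild type (-0.30, adjusted p = 0.00308). After the length correction both were lower. The third S27a gene, AT1G23410, was listed at 0 counts in all 4 libraries and was not tested. It overlaps AT1G23400 on the opposite strand. None of the 50-base windows of its transcript counted as unique, but matches to such an overlapping transcript were counted too. Overlap and copies elsewhere were not told apart, and a count of 0 does not show that AT1G23410 was silent.

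**Figure D4:**
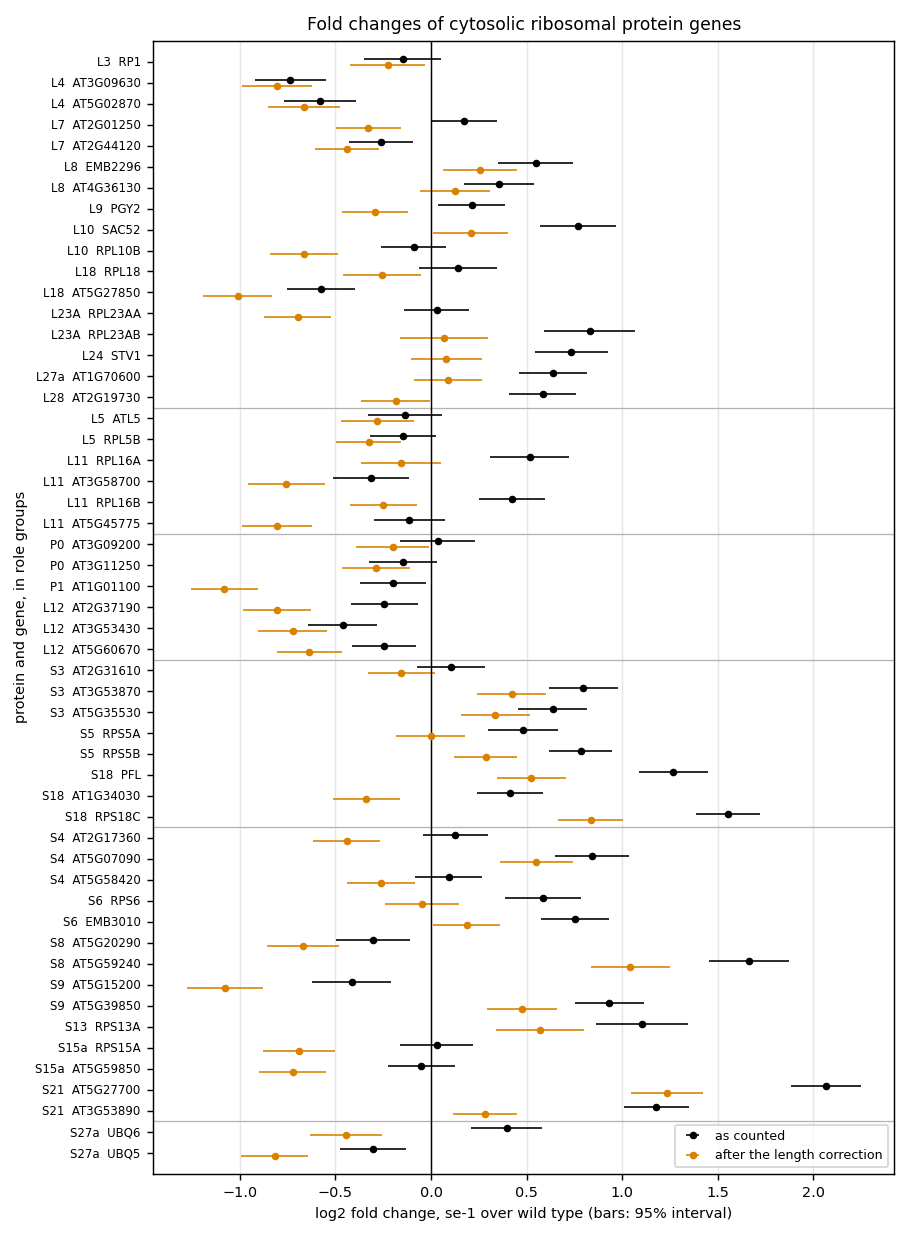
Log2 fold change (se-1 over wild type) of the 53 tested genes with 95% intervals, as counted and after the length correction, in the order of their roles. Values run from -0.74 to 2.07 as counted and from -1.08 to 1.24 after the correction, which moves nearly all genes to the left.

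Paralogues of the same protein were then compared with each other by the difference of their fold changes. Of 33 pairs of tested genes, 20 had fold changes that differed by an unadjusted 95% interval without 0. After the length correction 19 of these also did so, in the same direction. No such share was taken over pairs of other genes, and 72.3% of all tested genes were called as counted. The count of differing pairs is thus not shown to be particular to paralogues. Pairs of a protein share genes and are not independent. In 11 of the 20 the paralogue with the lower level per kb had the higher fold change, and in 9 the lower, so the minor genes did not move one way. In 5 pairs 1 gene was called higher and the other lower.

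The S8 pair differed most, by 1.97 on the log2 scale (95% interval 1.69 to 2.25), and by 1.71 (1.43 to 1.99) after the length correction. The ratio of AT5G59240 to AT5G20290 was 0.0286 and 0.0249 in se-1, against 0.00669 and 0.00696 in wild type. The S9 pair followed with 1.35 (1.07 to 1.62), and RPS18C against AT1G34030 with 1.14 (0.90 to 1.39). Among S18 genes, RPS18C took 30.4% and 28.2% of the S18 level per kb in se-1, against 17.8% and 18.6% in wild type, and AT1G34030 took 45.0% and 46.2% in se-1, against 62.6% and 62.8% in wild type.

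In L10, L18, L23A, S4 and S27a the gene with the highest level per kb gained on its tested paralogues. In L7 it did so as counted (-0.43, 95% interval -0.67 to -0.19), but after the length correction the interval held 0. The difference of UBQ5 minus UBQ6 was -0.70 (95% interval -0.95 to -0.45). RPL10B stood below SAC52 by 0.86 in fold change (95% interval -1.12 to -0.60), AT5G27850 below RPL18 by 0.72 (-0.99 to -0.45) and RPL23AA below RPL23AB by 0.80 (-1.10 to -0.51). For L4, L5, L8, P0, L12, S6 and S15a, the interval of every pair held 0. The L5 pair, for example, differed by -0.01 (95% interval -0.27 to 0.25). The ratios of the paralogues in single libraries still did not overlap between the genotypes for L4, L8, P0 and S6. They overlapped for L5 and S15a, and for L12 this differed by pair. Of all 33 pairs, 28 had ratios that did not overlap, with no share over pairs of other genes beside it. With 2 libraries each this is no test.

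**Figure D5:**
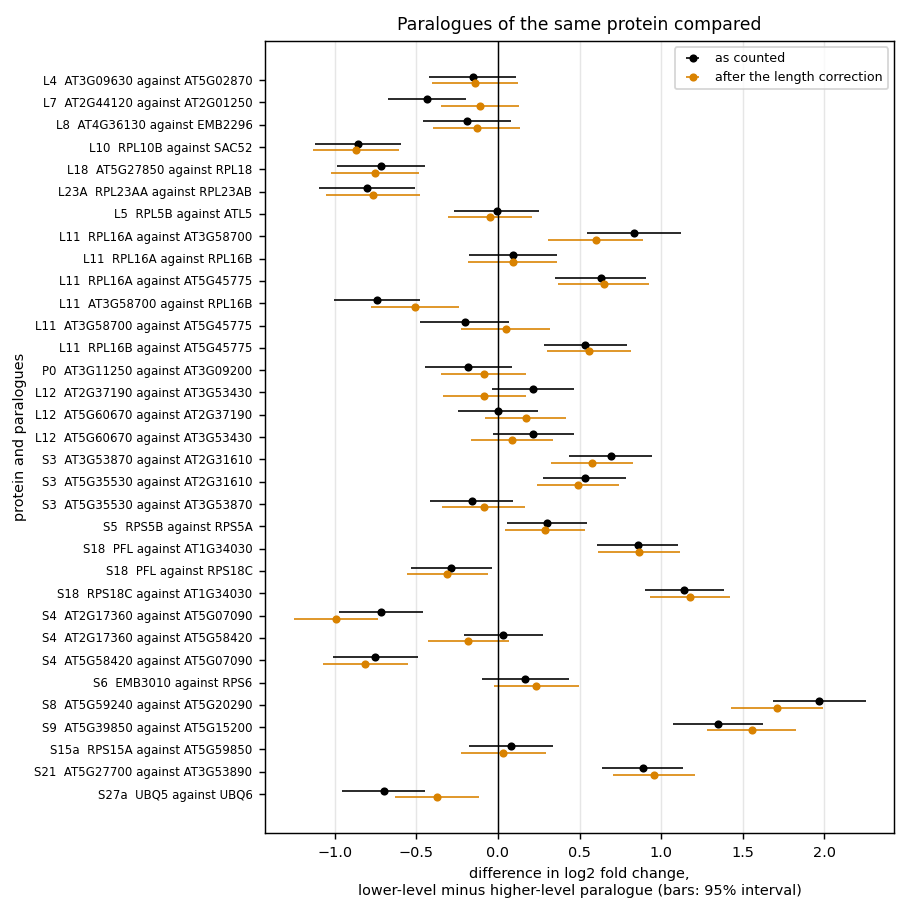
Difference in log2 fold change between the paralogues of 33 pairs, the gene with the lower level per kb minus the gene with the higher, with unadjusted 95% intervals, as counted and after the length correction. The S8 pair at 1.97 and the S9 pair at 1.35 lie furthest to the right.

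Other genes of the translation machinery were read from the same test. Beside the counts that follow, 36.2% of all tested genes rose and 36.0% fell as counted. After the length correction the shares were 32.3% and 34.4%. Of 60 tested cytosolic ribosomal protein genes outside the set, listed by product name, 48 rose and 7 fell (median 0.81). After the length correction 30 rose and 19 fell (median 0.26). The list is not complete: RPL3B and SAG24, named above, are not on it. Among nuclear genes for ribosomal proteins of plastids and mitochondria, 17 of 30 rose and 4 fell, and 12 rose and 10 fell after the correction. Ribosome biogenesis genes mostly fell as counted, 18 of 29 with 9 rising, and 13 fell and 11 rose after the correction. NOP10, a protein of the small nucleolar particles that guide pseudouridylation, was 5.19-fold higher in se-1 as counted, a log2 fold change of 2.38 that was 1.47 after the correction. Of 45 translation factor genes 12 rose and 24 fell, and after the correction 10 rose and 18 fell. Of 9 genes of the TOR pathway and regulators 3 rose and 5 fell (median -0.27), and after the correction 4 rose and 3 fell (median 0.08). TOR itself, the kinase that controls S6 kinase, had 35.1 and 37.2 CPM in se-1, against 126.8 and 114.9 CPM in wild type. It fell on both scales (-1.74 and -0.68).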

How the data were processed

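The authors deposited raw counts of reads per gene, whole numbers without normalization, for each library. Tools listed by the submitters' processing notes are HISAT2 2.0.5, featureCounts, Cufflinks 2.2.1 and FastQC 0.11.5, with no role given, and the build is TAIR10. Strand setting, annotation release and handling of multi-mapping reads: not given in the sources used.

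Counts were fitted with edgeR 4.0.16 in R 4.3.3 (filterByExpr, TMM, quasi-likelihood F-test, two-sided, Benjamini-Hochberg over all 18714 tested genes at 0.05), with no covariate. The procedure was also run on simulated data in which few genes changed and no length trend was set. That run does not cover data such as these, where most tested genes were called and fold change ran along with length. The SE is the absolute log2 fold change over the square root of F. The length correction used a natural spline with 5 degrees of freedom of log2 transcript length as an offset for each library. Transcript lengths (the median-length transcript), symbols and promoters came from RefSeq TAIR10.1, to which 27576 of 27880 rows matched. Intervals of paralogue differences combine both SEs as if they were independent, though both paralogues were measured in the same libraries.

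The members and the gene lists were chosen with earlier results of these data known. The list of other cytosolic ribosomal proteins also takes genes named by their domain, and it leaves out some paralogues, RPL3B and SAG24 among them. All members could be named, with values by library for the leading and the most changed gene of a protein. Alternatives were DESeq2 1.42.0, limma-voom (limma 3.58.1), other scalings and filters, a replicate block, corrections for length and GC content, and each library left out. Whether the replicates came from separate plants is not stated beyond the series' wording.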

Additional observations from a re-analysis of the deposited data

How the results depend on the processing

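The 26 members called higher, the 12 called lower, their median log2 fold change of 0.17 and the 20 paralogue pairs stayed within 1.5 times, or within the spread between libraries, under DESeq2, limma-voom, other scalings and other filters. Replicate numbers were not shown to pair the libraries: deviations of same-numbered libraries had a correlation of 0.026, and with the replicate block the counts were 26 and 12 members, 20 pairs and 13683 genes. Leaving out each library gave 25 to 26 members higher, 8 to 10 lower, 18 to 20 pairs, 12407 to 12530 genes, medians of 0.16 to 0.19 and log2 ratios of the summed level of 0.12 to 0.16.

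The corrections changed more. With length correction 12 members were higher and 29 lower, the median was -0.26 and the log2 ratio of the summed level -0.29. With length and GC correction 11 were higher and 30 lower, with -0.31 and -0.35, and with length correction and the replicate block together, chosen after seeing the data, 12 and 29, with -0.26 and -0.29. The cause was not tested. In these 3 settings, in that order, the log2 fold changes whose sign turned were -0.69, -0.65 and -0.70 for AT1G07770, -0.29, -0.38 and -0.29 for AT1G33140, -0.34, -0.35 and -0.34 for AT1G34030, -0.33, -0.31 and -0.33 for AT2G01250, -0.44, -0.47 and -0.44 for AT2G17360, -0.18, -0.17 and -0.18 for AT2G19730, -0.70, -0.63 and -0.70 for AT2G39460, -0.16 each for AT2G42740, -0.44, -0.57 and -0.45 for AT2G47110, -0.26, -0.28 and -0.26 for AT3G05590, -0.0021, -0.0937 and -0.0021 for AT3G11940, -0.25, -0.34 and -0.25 for AT4G18730, -0.0484, -0.19 and -0.0527 for AT4G31700, and -0.26, -0.37 and -0.26 for AT5G58420. AT3G09200 turned to -0.34 with length and GC correction. List medians that turned were 0.0797, 0.15 and 0.0762 for the TOR pathway and 0.0073, 0.0799 and 0.0073 for ribosome biogenesis. On the given strand alone, site II elements were in 63.0% and telo-boxes in 27.8% of member promoters.

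Since each genotype has 2 libraries, the spread of a gene is estimated with help from all genes. A count of 0 allows up to 3 counts, which is 0.144 to 0.161 CPM, and covers counting error only.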
